A study of Mus musculus with 2 samples.

Results

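Rhox5, Rhox6 and Rhox9 are 3 of the 34 Rhox genes among the 27998 genes of the deposited matrix. They were selected on measured values of these same libraries, namely their level, share of cells with a transcript, co-expression, link to Krt8 and Nanog, and knockout over wild-type ratio. Those measures are therefore given as descriptions and support nothing by themselves. They were measured in iPSCs of the mouse (induced pluripotent stem cells, made from somatic cells by reprogramming and able to form all tissues of the embryo). The knockout cells carried SRFΔ/Δ, a deletion of both alleles of the serum response factor gene Srf. The wild-type cells carried SRFf/f, the same alleles floxed but not recombined. Both were grown in medium with serum, and no other agent is named. The labels do not give the Cre used, the number of clones or the passage. Droplet single-cell RNA sequencing (10x Genomics Chromium) gave 1 library of each genotype, so no test between genotypes is possible and every difference below is between these libraries, without a replicate check. Intervals are 95% intervals of counting error only.

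The values are counts of unique molecular identifiers (UMIs, 1 per captured transcript). Cells with at least 1000 detected genes, 1 to 10% mitochondrial UMIs and at most 1 UMI over 8 primitive endoderm genes (Gata6, Gata4, Sox17, Pdgfra, Dab2, Cubn, Lrp2 and Amn) were kept. This left 592 of 1073 knockout cells (14760131 UMIs, median 24466.5 per cell) and 880 of 954 wild-type cells (22833473 UMIs, median 26624). The endoderm limit removed 161 knockout and 22 wild-type cells, and the lower mitochondrial limit removed 244 and 17. Srf itself had 4 knockout and 198 wild-type UMIs. Pou5f1, the defining factor of pluripotent cells, had a UMI in 580 of 592 knockout and 867 of 880 wild-type cells. Cells with at least 10 UMIs over a list of 10 fibroblast genes, which mark feeder cells, numbered 13 and 11. The share of UMIs from chromosome 8 genes was above 1.2 times the wild-type median in 280 knockout cells (47.3%) and 88 wild-type cells (10.0%). The libraries shared 2 cell barcodes.

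Rhox genes (reproductive homeobox, X-linked) encode homeodomain transcription factors in a cluster that has expanded in rodents. They are known mainly from testis, ovary, placenta and germ cells. Rhox5, first described as Pem, is the founding member and is also found in embryonic stem cells and extraembryonic tissue. Rhox6 and Rhox9, first described as Psx1 and Psx2, are known from placenta and the germ line. The cluster is silenced in most cells of the embryo proper by DNA methylation and by methylation of histone H3.

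In the GRCm38 assembly with the GENCODE M21 annotation, the 34 Rhox genes span 916 kb of chromosome X, from 37213804 to 38129967. Rhox5 (ENSMUSG00000095180) lies from 37804842 to 37808876 on the plus strand. Rhox6 (ENSMUSG00000006200) lies from 37826910 to 37829857 on the plus strand, and Rhox9 (ENSMUSG00000068048) from 37899097 to 37901770 on the minus strand. Rhox6 and Rhox9 are close copies, so their sequences bear on whether their counts can be separated. Their 681-base coding sequences aligned without a gap at 90.6% identity, and the longest identical run is 161 bases, from base 167 to 327 of the Rhox6 coding sequence. A read inside this run fits both genes, and no capital is used because no base differs:

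Rhox6 and Rhox9 shared run: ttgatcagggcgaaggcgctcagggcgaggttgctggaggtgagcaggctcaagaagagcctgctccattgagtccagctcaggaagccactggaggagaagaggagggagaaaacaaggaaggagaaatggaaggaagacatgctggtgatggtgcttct

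The last 60 coding bases, nearer the 3′ end that droplet libraries of this kind usually read, are shown for comparison, with the 13 positions at which the genes differ in capitals:

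Rhox6 stretch: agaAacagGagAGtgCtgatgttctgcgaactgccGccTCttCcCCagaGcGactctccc
Rhox9 stretch: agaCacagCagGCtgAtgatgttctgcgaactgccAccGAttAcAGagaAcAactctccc

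Over whole transcripts, 159 of the 961 windows of 50 bases in Rhox6 also occurred in Rhox9, but none of those in its last 500 bases did. Along the last 500 bases of the 4-exon Rhox9 transcript, 79.8% of bases were identical to Rhox6. No window of 50 bases of Rhox5 occurred in another gene. How reads common to 2 genes were counted is not given in the sources used here, so counts of Rhox6 and Rhox9 carry that uncertainty and those of Rhox5 do not.

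All 3 genes were lower in the knockout library. Rhox5 had 208 knockout and 1043 wild-type UMIs, or 14.1 CPM (UMIs per 1e6 UMIs of the summed cells; interval 12.2 to 16.1) and 45.7 CPM (42.9 to 48.5). The log2 of its knockout to wild-type ratio was -1.69 (interval -1.92 to -1.48), a level 3.24-fold higher in wild type. Rhox6 had 39 and 530 UMIs, or 2.64 CPM (1.88 to 3.61) and 23.2 CPM (21.3 to 25.3), with a log2 ratio of -3.12 (-3.64 to -2.66). Rhox9 had 34 and 270 UMIs, or 2.30 CPM (1.60 to 3.22) and 11.8 CPM (10.5 to 13.3), with a log2 ratio of -2.34 (-2.92 to -1.84). The counting intervals of the libraries did not overlap for any of the 3. How many of all genes have intervals apart was not computed, so this is no result about the members. At this depth the intervals were also apart for Nanog and Tcf15, and they overlapped for Esrrb and Tbx3.

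Of the 3 members, Rhox5 and Rhox6 averaged 10 CPM or more over the libraries, and both were at a log2 ratio of -1 or lower, where 0.635% of 6461 such genes lay. With a minimum of 1 CPM all 3 qualified and all 3 were at -1 or lower, against 1.61% of 11789 genes. Rhox6 passed 10 CPM only through wild type (2.64 against 23.2 CPM). Without the cell richest in Rhox6 and Rhox9 in each library, described below, its mean was 3.66 CPM. The contrast was also part of how the genes were chosen, so these counts are no result about them. The median log2 ratio over the 6461 genes was 0.06, and over 177 X-linked genes 0.01. Of the 5 nearest protein-coding genes on each side, 4 had at least 10 CPM, and 2 of these 4 were lower in the knockout library. Their log2 ratios ran from -0.29 (Cul4b) to 0.33 (Ndufa1), with Nkap at -0.07 and Lamp2 at 0.08. Below that level, Gm9, 2.76 kb from the cluster, had 3 knockout and 18 wild-type UMIs (log2 ratio -1.77, interval -4.36 to -0.18), and Rnf113a1 62 and 138 (-0.52, -0.98 to -0.08). The other 4 had 0 UMIs in a library or an interval that includes 0.

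Much of the Rhox6 and Rhox9 signal came from 1 cell in each library. In wild type, a single cell of 38116 UMIs held 391 of the 530 Rhox6 UMIs (73.8%) and 165 of the 270 Rhox9 UMIs (61.1%), with 0 of Rhox5. The next cells held 16 and 10. The knockout library likewise had a single cell, of 25208 UMIs, that held 21 of 39 Rhox6 UMIs (53.8%) and 12 of 34 Rhox9 UMIs (35.3%), also with 0 of Rhox5, and the next cells held 4 and 3. Neither cell carried a barcode shared by the libraries.

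These 2 cells, chosen by their Rhox6 and Rhox9 counts, stood apart from the pluripotent cells in other genes too. The wild-type cell had 0 UMIs of Pou5f1, Sox2 and Nanog, where the median cell had 20 of Pou5f1. It held 112 UMIs of Krt8 and 210 of Krt18, which pair as the keratin filaments of simple epithelia, 19 of Krt7 and 11 of Hand1, a factor of trophoblast giant cells and of mesoderm. Of 12 trophectoderm and placenta genes it had UMIs of 9, with 55 UMIs in all, among them 7 of Ascl2, 7 of Plac1 and 3 of Cdx2. No other kept wild-type cell had more than 32 UMIs of this list. The knockout cell had 16 UMIs of Pou5f1, the median of its library, and 0 of Sox2 and Nanog. It held 13 UMIs of Krt8, 12 of Krt18, 21 of Hand1 and 14 of the placental homeobox gene Esx1, and its 36 list UMIs, over 3 genes, compared with at most 10 in any other kept knockout cell. Eomes and Elf5, defining markers of trophoblast stem cells, were at 0 in both cells. Elf5 had 0 UMIs in all kept cells, and Eomes 65 in the knockout library and 121 in wild type. These 0 values therefore say little about the 2 cells. The knockout cell had a chromosome 8 share of 1.37 times the wild-type median, and the wild-type cell 1.04 times.

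Without these cells the difference was smaller and had the same direction. Rhox6 had 18 knockout and 139 wild-type UMIs, 1.22 against 6.10 CPM, with a log2 ratio of -2.29 (interval -3.12 to -1.61). Rhox9 had 22 and 105 UMIs, 1.49 against 4.61 CPM, with a log2 ratio of -1.60 (-2.36 to -0.95). Rhox5 stayed at -1.69.

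**Figure D1:**
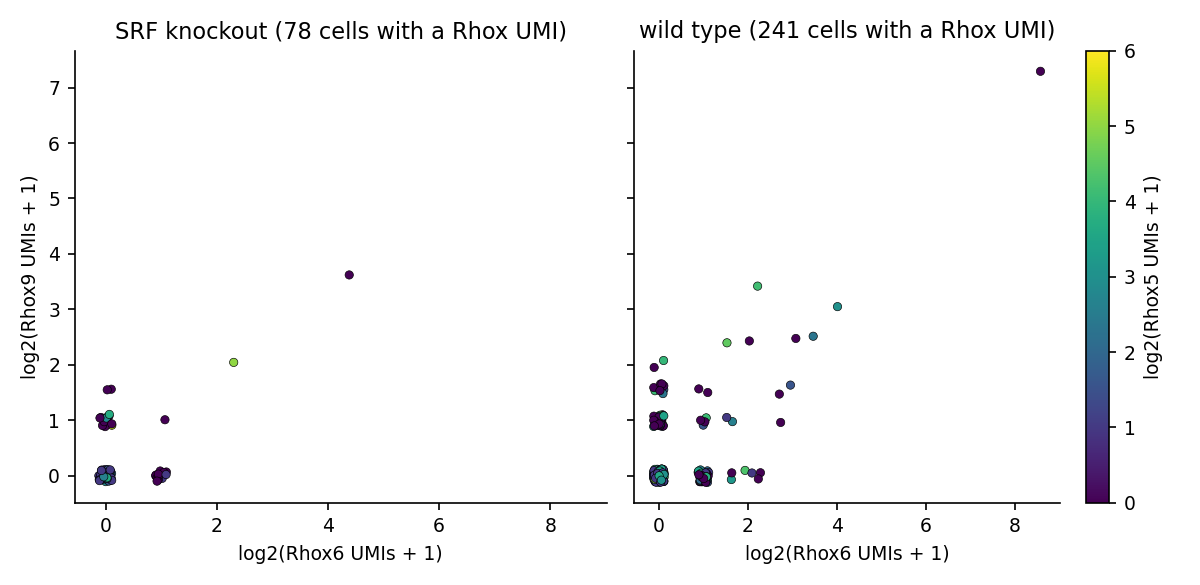
Each point is 1 kept cell with a UMI of any of the 3 genes (78 knockout cells, 241 wild-type cells), with log2(Rhox6 UMIs + 1) across, log2(Rhox9 UMIs + 1) up, a small random shift so that points do not hide each other, and colour for log2(Rhox5 UMIs + 1). The single cell of 391 Rhox6 and 165 Rhox9 UMIs stands alone at the upper right of the wild-type panel, and the knockout cell of 21 and 12 UMIs stands apart in its panel.

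The cells that carried the genes were a minority. To compare shares at equal depth, each cell was thinned at random to 10235 UMIs, which left 527 knockout and 797 wild-type cells. A Rhox5 UMI was then present in 23 of 527 knockout cells (4.36%, exact Clopper-Pearson interval 2.79 to 6.48) and 112 of 797 wild-type cells (14.1%, 11.7 to 16.7). Rhox6 was present in 1.71% (0.784 to 3.22) and 4.02% (2.76 to 5.62) of cells, and Rhox9 in 1.14% (0.419 to 2.46) and 4.14% (2.87 to 5.77). The intervals of the libraries were apart for Rhox5 and for Rhox9 and overlapped for Rhox6 in this random draw. How many of all genes have intervals apart was not computed, so this too is no result about the members. Knockout minus wild type, the share difference was -2.31 percentage points for Rhox6 and -3.00 for Rhox9. Another draw gave -2.94 and -2.56, so the contrast between Rhox6 and Rhox9 rests on the draw.

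Without thinning the shares were 8.78% and 19.7% for Rhox5, 2.70% and 8.41% for Rhox6, and 3.21% and 6.93% for Rhox9, knockout first. Cells with fibroblast genes, which should lack these transcripts, gave the background of free RNA. Among 20 such thinned knockout cells none had a UMI of any of the 3, which allows a share of up to 15% by 3 counts and 16.8% by the exact interval. Among 8 in wild type, 1 had a Rhox5 UMI and none had Rhox6 or Rhox9. Median totals of all cells with fibroblast genes were 25264 UMIs in the knockout library and 19258 in wild type. So few cells leave the background share wide, and for none of the 3 genes was it detectable as different from the share in the kept cells. Summed over all cells with fibroblast genes, Rhox5 had 1 UMI in each library. That is 1.53 CPM (0.0388 to 8.55) in 23 knockout cells and 4.24 CPM (0.107 to 23.6) in 13 wild-type cells. Both intervals lay below those of the kept cells, by counting error alone. Rhox6 and Rhox9 had 0 UMIs, with upper limits of 5.66 CPM (knockout) and 15.6 CPM (wild type). In the kept cells, knockout Rhox6 (2.64 CPM) and Rhox9 (2.30 CPM) and wild-type Rhox9 (11.8 CPM) lay below these limits. Wild-type Rhox6 lay above its limit at 23.2 CPM, but below it at 6.10 CPM without the top cell. So few fibroblast-like cells cannot separate those lower levels from the background.

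Rhox5 was uneven among the cells that had it. In wild type, 173 of 880 cells had a UMI, and 80 of them had exactly 1. At the other end, 42 cells with 10 or more held 74.3% of all Rhox5 UMIs, and the highest cells had 54, 43 and 34. Of 592 knockout cells, 52 had a UMI, 5 cells with 10 or more held 57.2% of the UMIs, and the highest had 44, 31 and 20. The Fano factor (variance over mean of thinned UMIs, 1 for Poisson counting) of Rhox5 was 6.07 in wild type, where 2 of 1661 genes of similar mean were higher and their median was 1.07. The knockout value was 4.07, with 20 of 2328 higher and a median of 1.03. For Rhox6 and Rhox9 the Fano factors rested on the single cells. In wild type Rhox6 went from 77.0 to 3.51 and Rhox9 from 22.2 to 2.04 without the top cell. Among knockout cells Rhox6 went from 4.47 to 0.985 and Rhox9 from 2.38 to 1.32.

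**Figure D2:**
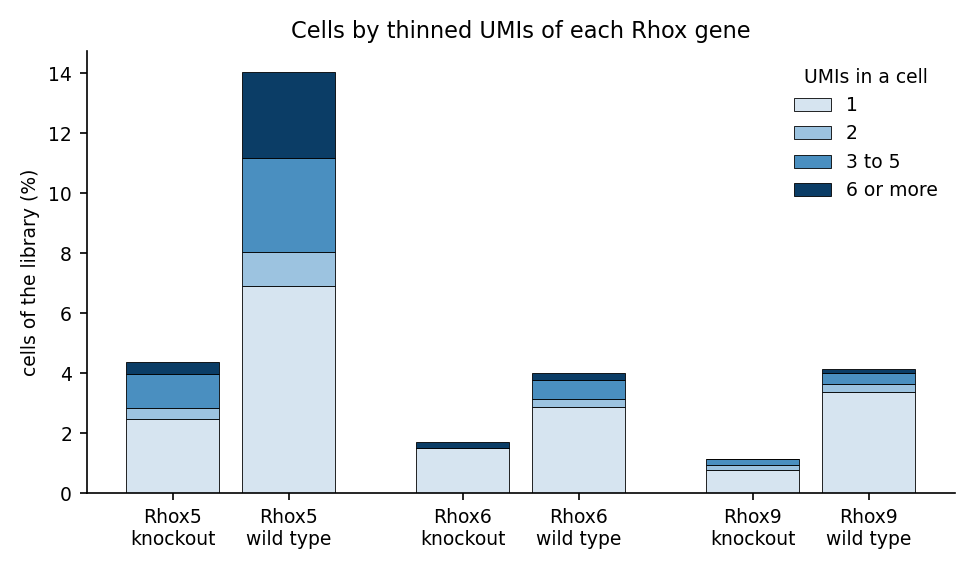
Stacked bars give the percent of thinned cells (527 knockout, 797 wild type) with 1, 2, 3 to 5, or 6 or more UMIs of each gene. The Rhox5 bar reaches 14.1% in wild type and 4.36% in the knockout library, and 48 of the 112 wild-type cells in it have 3 or more UMIs.

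Rhox6 and Rhox9 occurred together more often than their shares alone would give. In thinned wild-type cells 11 had both, against 1.32 as the product of the shares, and Pearson's r on log2(UMIs + 1) over 797 cells was 0.71. Without the top cell it was 0.52 over 796 cells, with 10 cells having both. In 527 knockout cells r was 0.61, and it was 0.21 without the top cell, with 1 cell left that had both. In unthinned cells, 19 wild-type cells had both against a product of 5.13, and 3 knockout cells against 0.514. Cells share their library, and these values are descriptions. Because the genes share the 161-base run, reads assigned to the wrong copy could add to cells that show both, and this was not tested.

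Outside the top cell, the wild-type cells richest in Rhox6 and Rhox9 did express Pou5f1 and often Dppa3, a germ cell and naive pluripotency gene also called Stella. The cell with 16 Rhox6 and 7 Rhox9 UMIs had 7 Rhox5, 12 Pou5f1 and 29 Dppa3 UMIs. The cell with 10 and 5 had 4 Rhox5, 9 Pou5f1 and 15 Dppa3 UMIs. A cell with 4 and 10 had 17 Rhox5, 28 Pou5f1 and 3 Dppa3 UMIs. These cells had at most 2 Krt8 UMIs, unlike the top cell with 112.

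Rhox5 overlapped with the other pair only in part. In thinned wild-type cells, 24 of the 54 cells with Rhox6 or Rhox9 also had Rhox5, against 7.59 as the product of the shares, and r of Rhox5 with the sum of the other two was 0.21. Among knockout cells 3 of 13 did, against 0.567, with r of 0.20, which rests on these 3 cells. Conversely, 24 of the 42 wild-type cells with 10 or more raw Rhox5 UMIs had no UMI of Rhox6 or Rhox9, the richest of them with 54 Rhox5 UMIs. Of the 10 wild-type cells with 5 or more Rhox6 and Rhox9 UMIs together, 5 had no Rhox5.

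The link to Krt8, whose product is a keratin of simple epithelia and of the first epithelium of the embryo, rested on the single top cells. In wild type r with Krt8 was 0.29 for Rhox6 and 0.27 for Rhox9 over 797 cells, and 0.513% of 10517 genes (those of mean thinned UMIs of 0.02 or more) reached 0.2 in size. Without the top cell the r values were 0.048 and 0.033. Knockout cells gave an r of 0.27 for both genes, where 0.151% of 10598 genes reached 0.2, and without the top cell 0.018 and 0.061. Rhox9 was under the minimum mean there. Rhox5 had an r with Krt8 of -0.027 in wild type and 0.0075 in the knockout library.

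The cells richest in Krt8 show the same. Raw Krt8 counts in the 5 highest wild-type cells were 140, 112, 34, 32 and 10. Only the cell with 112 had any Rhox UMI, and the other 4 had 0 of all 3 genes. The highest knockout counts were 42, 16, 13, 3 and 3, and only the cell with 13 had Rhox UMIs. Among 733 wild-type thinned cells without Krt8, 14.2% had a Rhox5 UMI, close to the 13.7% of 51 cells with 1 Krt8 UMI, whose interval (5.70 to 26.3) spans it. Krt8 itself was at 11.8 CPM (knockout) and 22.3 CPM (wild type), with a log2 ratio of -0.92, and Krt18 at -1.57. These ratios also rest in part on few cells. In wild type, 5 cells with 10 or more Krt8 UMIs held 64.4% of them, and 5 such cells for Krt18 held 57.2%. Without the top Rhox6 and Rhox9 cell of each library, Krt8 had 161 knockout and 397 wild-type UMIs, and Krt18 138 and 482.

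The link to Nanog, a factor of the naive pluripotent state, was weak for all 3 genes, and r was highest for Rhox5. In wild type r was 0.096 for Rhox5, -0.038 for Rhox6 and -0.0092 for Rhox9, and 0% of 10517 genes reached 0.2 in size with Nanog. Knockout values of r were 0.12 for Rhox5, -0.020 for Rhox6 and 0.0017 for Rhox9, and 0.0283% of 10598 genes reached 0.2. In sparse counts values of this size are no finding by themselves. Grouped by Nanog, wild-type cells with 0, 1, 2 and 3 or more Nanog UMIs had means of 0.333, 0.468, 0.627 and 0.688 Rhox5 UMIs. The lowest and highest groups (345 and 93 cells) had intervals of 0.275 to 0.400 and 0.530 to 0.879, which did not overlap, though UMIs of 1 cell are not independent and these intervals are too narrow for a gene this uneven. The share of cells with a Rhox5 UMI was 10.7% (7.66 to 14.5) in the lowest group and 20.4% (12.8 to 30.1) in the highest, and these intervals overlapped.

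In the knockout library the means were 0.0676, 0.130, 0.0962 and 0.455. The last rests on 33 cells, of which 3 had Rhox5. Rhox6 and Rhox9 showed no such order. Without the top cell, the mean of Rhox6 in wild type was 0.0698 in cells without Nanog and 0.0215 in cells with 3 or more. Nanog was itself lower in the knockout library, at 72.1 against 102 CPM, a log2 ratio of -0.50.

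Wild-type cells high in the Rhox genes also differed in other genes, all but Nanog outside the rule. The intervals for these and the other Rhox-rich cells below treat UMIs as independent. UMIs of 1 cell are not, so the intervals are too narrow for genes uneven among cells. The 48 thinned wild-type cells with 3 or more Rhox5 UMIs had a mean of 2.81 Dppa3 UMIs, against 1.01 in the 684 cells with none, a log2 ratio of 1.48 (interval 1.19 to 1.74). Nanog was at 1.52 against 1.01, a log2 ratio of 0.60 (0.22 to 0.94). The 10 genes of the primed or formative state, the pluripotent state of the implanted embryo, were lower together, at 3.62 against 6.06 UMIs per cell, a log2 ratio of -0.74 (-0.97 to -0.52). Most of that list's UMIs are of Tcf15, a factor of the exit from the naive state, which was at 2.04 against 3.77. Other naive factors had intervals that include 0, with Klf4 at -0.16 (-0.42 to 0.08) and Esrrb at -0.23 (-0.87 to 0.31).

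The 14 wild-type cells with 2 or more Rhox6 and Rhox9 UMIs, top cell left out, had a larger Dppa3 difference. Their mean of Dppa3 was 5.50 UMIs, against 0.989 in 743 cells with none, a log2 ratio of 2.48 (interval 2.12 to 2.82), and 11 of the 14 had a Dppa3 UMI. Tcf15 was at 1 UMI per cell against 3.73, a log2 ratio of -1.85 (-2.77 to -1.15), and Klf4 at 1.93 against 3.36, a log2 ratio of -0.77 (-1.40 to -0.25). Other pluripotency genes went both ways. Zfp42 was at 0.95 (0.21 to 1.54) and Sall4 at 0.98 (0.22 to 1.59). Pou5f1 was at -0.40 (-0.72 to -0.10) and Tbx3 at -1.58 (-4.95 to -0.04). The 4 core pluripotency genes (Pou5f1, Sox2, Sall4 and Nanog) were together at -0.27 (-0.52 to -0.03). The 12 naive-state genes were together at 0.07 (-0.11 to 0.25). Nanog, higher in the Rhox5-rich cells, was at -0.36 (-1.43 to 0.43) here. The 12 trophectoderm and placenta genes were at 2.21 against 0.432 UMIs per cell, a log2 ratio of 2.38 (1.78 to 2.89). Of the 31 list UMIs behind that value, 19 were of Tfap2c, a factor of trophoblast that also acts in germ cells and naive stem cells, 6 of Krt7 and 4 of Ascl2. Cdx2, Gata3, Hand1, Eomes and Plac1 had 0. The same list was higher in the Rhox5-rich cells, by a log2 ratio of 1.26 (0.78 to 1.69), with 23 of 49 UMIs from Tfap2c.

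Depth differed little between these cells, with median totals of 29307.5 and 27717.5 UMIs for Rhox5-rich and Rhox5-free cells. Mitochondrial shares had medians of 3.43% and 3.42%. Raised chromosome 8 shares were found in 8.33% of Rhox5-rich cells and 9.65% of Rhox5-free cells. They were more frequent in the cells rich in Rhox6 and Rhox9, at 3 of 14 (21.4%), against 9.69% of the cells with neither gene. Fibroblast-list UMIs averaged 0.125 in Rhox5-rich and 0.450 in Rhox5-free cells. Only 8 thinned knockout cells had 3 or more Rhox5 UMIs. They averaged 2 Nanog UMIs against 0.672, a log2 ratio of 1.62 (0.75 to 2.29), and Nr0b1, an X-linked nuclear receptor of stem cells, was at 1.75 against 0.604, a log2 ratio of 1.58 (0.65 to 2.30). Dppa3 in these 8 cells was at 0.96 (-0.81 to 2.08). The primed or formative list was at -0.54 (-1.01 to -0.14), with most of its UMIs from Tcf15, at -0.51 (-1.10 to -0.03). Both had the direction seen in wild type. In wild type Nr0b1 was at -0.02 (-0.67 to 0.52) in Rhox5-rich cells.

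**Figure D3:**
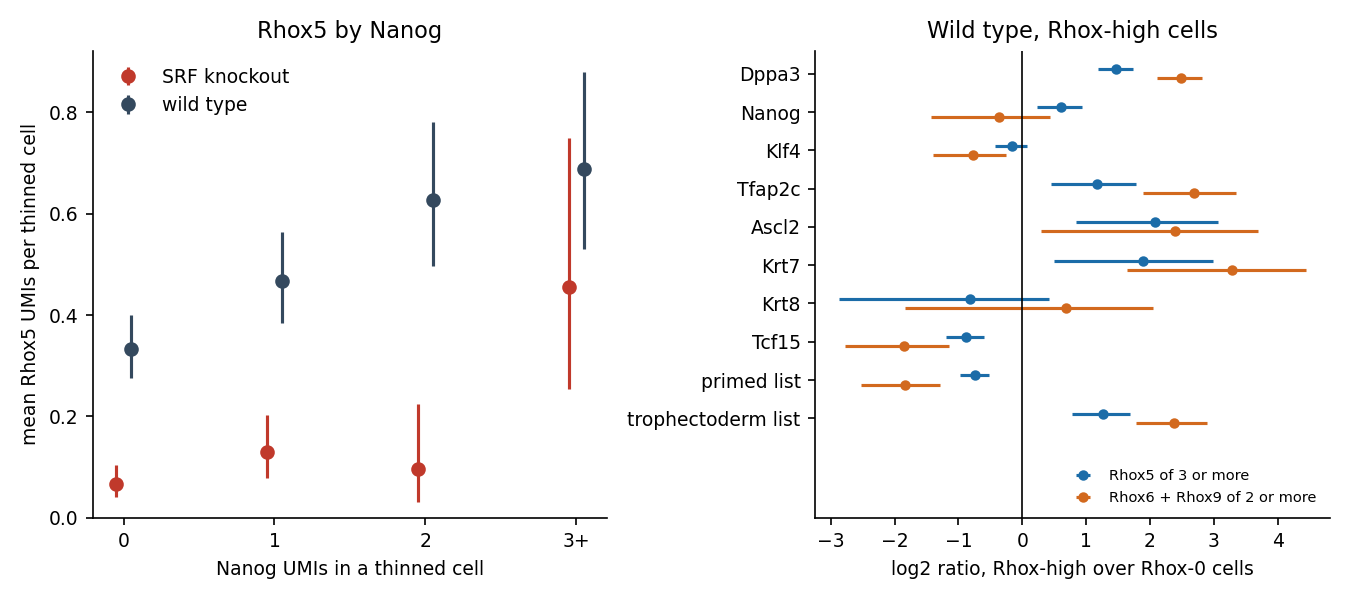
Left, the mean Rhox5 UMIs per thinned cell (vertical axis) by Nanog UMIs of the cell (horizontal axis) in each library, with Poisson intervals that treat UMIs as independent; wild type goes from 0.333 to 0.688. Right, the log2 ratio of mean UMIs in Rhox-rich over Rhox-free wild-type cells for 8 genes and 2 gene lists. Its 95% counting intervals also treat UMIs as independent. Dppa3 lies at 1.48 and 2.48, and the primed list at -0.74 and -1.84.

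Over all 3654 genes that averaged 0.25 thinned UMIs or more in both libraries, the genes whose pattern was most like the sum of the 3 members across 797 wild-type cells included Mt2 (r 0.28), Dppa3 (0.23), Mt1 (0.22), Cyba (0.21), S100a6, Ckb, Tfpi, Pdgfa and Rab3ip. Mt1 and Mt2 encode metallothioneins, which bind zinc and other metals. In the knockout library r was 0.16 for Mt2, 0.029 for Dppa3, 0.13 for Mt1 and 0.0074 for Cyba. These values include the top cell of each library. Without the top cells, wild-type r was 0.28 for Mt2, 0.25 for Dppa3, 0.23 for Mt1 and 0.19 for Cyba, and Rab3ip left the 10 highest. Knockout r was then 0.12 for Mt2, 0.039 for Dppa3, 0.11 for Mt1 and -0.033 for Cyba. The lowest in wild type were Chchd10 (-0.21), Mdk (-0.20), Tdgf1 (-0.19), Rps27 (-0.19) and Tcf15 (-0.18). These values are weak and describe cells of 1 library at equal depth. Mt1, Mt2 and Cyba lie on chromosome 8, whose share differed between cells. Dppa3 was also lower in the knockout library, at 35.3 against 119 CPM, a log2 ratio of -1.76 (interval -1.90 to -1.62).

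The level of Rhox5 depended on endoderm genes in the knockout library, which bears on what the filter does to the ratio. Cells of 1 to 10% mitochondrial UMIs, fibroblast cells left out, were grouped by their UMIs over the 8 endoderm genes. In the knockout library Rhox5 was at 14.7 CPM (interval 12.5 to 17.2) in 438 cells with none and at 13.1 CPM in 141 cells with 1. It was at 3.62 CPM (0.987 to 9.27) in 41 cells with 2 to 4, at 50.1 CPM (35.8 to 68.2) in 38 cells with 5 to 19, and at 297.3 CPM (272.5 to 323.8) in 72 cells with 20 or more. In that last group 64 of 72 cells had a Rhox5 UMI. Median totals of these groups lay between 20596 and 26639 UMIs.

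Rhox6 and Rhox9 were low throughout. The 72 cells held 9 Rhox6 UMIs (5.07 CPM, interval 2.32 to 9.62), in 9.72% of cells. In the 437 cells with no endoderm UMI, top cell left out, Rhox6 was at 1.52 CPM (0.870 to 2.47), in 2.97% of cells. The level was thus higher in the 72 cells by these 9 UMIs, with intervals that overlapped. With the top cell it was 3.51 CPM. Rhox9 had 0 UMIs in the 72 cells, where 3 counts would be 1.69 CPM, and 1.62 CPM (0.942 to 2.59) in the 437. Krt8 was at 54.6 CPM in these 72 cells, against 9.87 CPM in the cells with no endoderm UMI, and Nanog at 4.50 against 74.5 CPM. In wild type 748 cells with no endoderm UMI had 47.4 CPM of Rhox5 and 121 cells with 1 had 38.8 CPM. Only 1 wild-type cell had 20 or more endoderm UMIs, and it held 16 Rhox5 UMIs.

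With no endoderm filter, 753 knockout and 902 wild-type cells gave 41.4 and 45.5 CPM of Rhox5, and its log2 ratio was -0.14 (interval -0.27 to -0.0011), against -1.69 with the filter. Of the 780 Rhox5 UMIs of those knockout cells, 572 were in the 161 cells that the filter removes. Rhox6 and Rhox9 moved little, to -3.05 and -2.55. In the knockout library the filter also changed the links of Rhox5 across cells. With the removed cells kept, r of Rhox5 with Krt8 there was 0.26 and with Nanog -0.095. Wild-type r of Rhox5 moved little, to -0.028 with Krt8 and 0.097 with Nanog. Knockout r of Rhox6 with Krt8 was 0.23, against 0.27 with the filter. In cells without a single endoderm UMI, the log2 ratio of Rhox5 was -1.69, as in the main set.

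**Figure D4:**
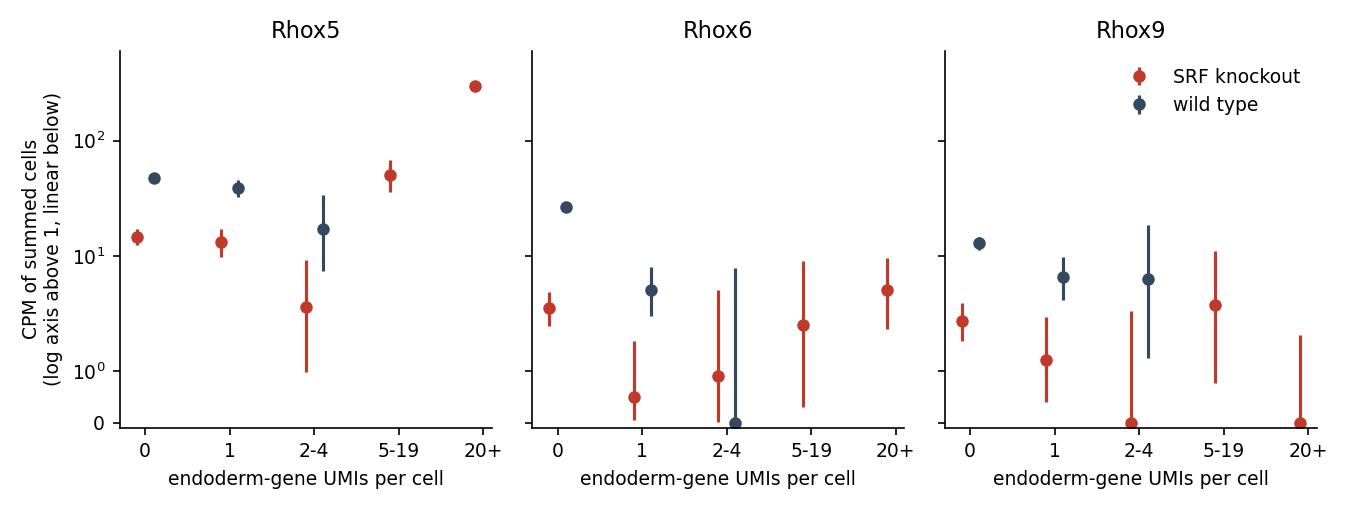
Level of each gene in CPM of summed cells (log axis above 1, linear below) by the cell's UMIs over 8 endoderm genes, in groups of at least 10 cells, with 95% Poisson intervals. Rhox5 reaches 297.3 CPM in the 72 knockout cells with 20 or more endoderm UMIs, where Rhox9 is at 0.

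Cells with a raised chromosome 8 share were also left out in turn. In knockout cells with the usual share Rhox5 was at 16.9 CPM and in those with a raised share at 11.2 CPM, while in wild type it was at 44.8 and 53.3 CPM. Without the raised cells of both libraries the log2 ratio of Rhox5 was -1.41 (interval -1.69 to -1.14). That of Rhox6 was -4.49 and that of Rhox9 -3.70. The knockout top cell was among the cells left out, and the wild-type one was not. The raised knockout cells together held 31 Rhox6 and 27 Rhox9 UMIs, of which the top cell held 21 and 12. Without thinning, Rhox9 was present in 4.64% of raised knockout cells and 1.92% of those with the usual share. With both top cells left out as well, they were -2.45 (-3.78 to -1.51) and -2.28 (-3.73 to -1.28), on 8 and 7 knockout UMIs.

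**Figure D5:**
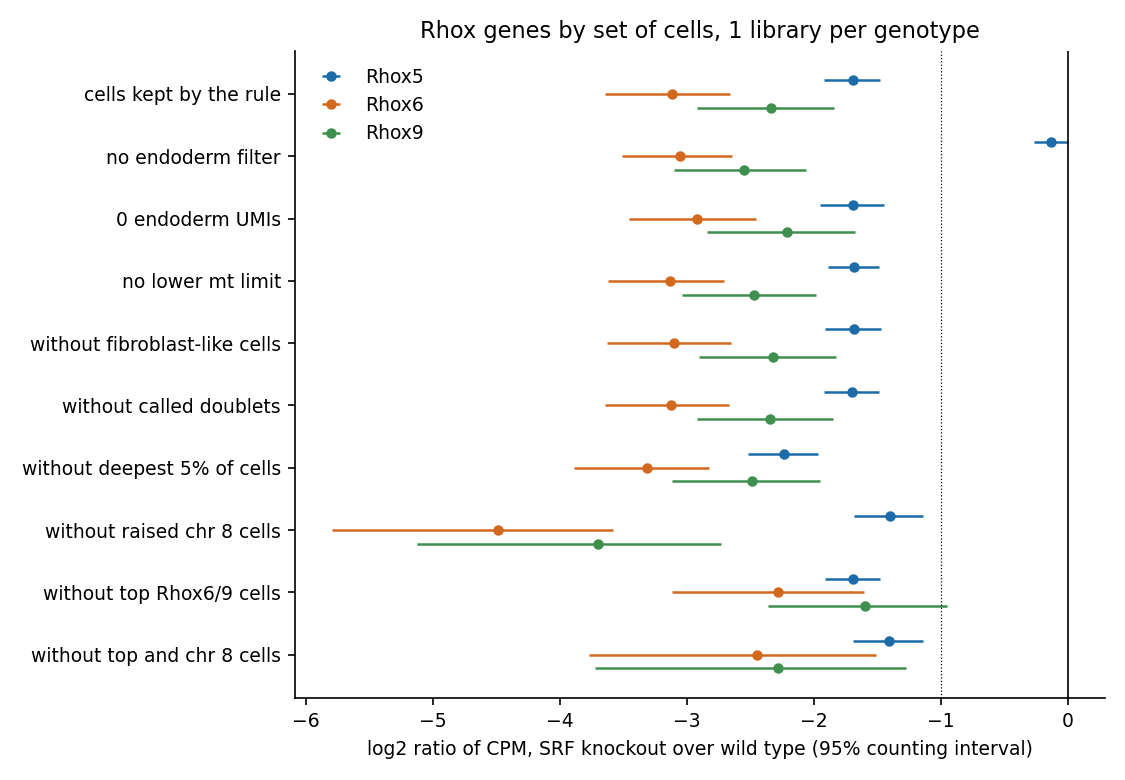
Log2 ratio of CPM, knockout over wild type (horizontal axis), for each gene under 10 choices of cells (rows), with 95% counting intervals, a solid line at 0 and a dotted line at -1. Rhox5 moves from -1.69 to -0.14 when the endoderm filter is dropped, and Rhox6 and Rhox9 move to -2.29 and -1.60 without the top cells.

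The rest of the cluster was nearly silent. Of the 34 Rhox genes, 25 had 0 UMIs in the kept cells of both libraries. The 3 members held 82.4% of 341 knockout and 95.9% of 1921 wild-type Rhox UMIs. Rhox13, at the far end of the cluster, had 44 knockout and 35 wild-type UMIs, a log2 ratio of 0.96 (interval 0.29 to 1.64), the opposite direction to the members. Rhox10 had 8 and 1 UMIs, a log2 ratio of 3.13 (0.73 to 9.10). Rhox1, at the near end, had 4 and 37, a log2 ratio of -2.43 (-4.53 to -1.10), the direction of the members. Rhox7b (1 and 5), Rhox7a (2 and 0) and Rhox2a (1 and 0) were too low to compare. Many of the genes at 0 are the Rhox2, Rhox3 and Rhox4 copies, which resemble each other closely, and how reads that fit several copies were counted is not given in the sources used here.

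Genes of DNA methylation and of histone H3 lysine 9 methylation, marks known from the silent cluster, were compared from a list of 11. It holds the enzymes and cofactors that write the marks and the Tet genes, whose products remove DNA methylation. Of 10 with at least 10 CPM, 9 were higher and 1 lower in the knockout library, where 42.2% of all 6461 genes were lower, and the median log2 ratio was 0.15 against 0.06 over all genes. The 9 include Tet1 (0.20) and Tet2 (0.28), and the lower one is Dnmt3l (-0.70, interval -0.81 to -0.60), a cofactor of de novo methylation. Among the 9, Dnmt1 (0.05), Dnmt3b (0.04), Uhrf1 (0.10) and Ehmt1 (0.14) had intervals that span no change. Dnmt3a, a de novo methyltransferase, was the only one past 1 in size, at 94.9 against 46.2 CPM (log2 ratio 1.04, interval 0.92 to 1.15). Whether this bears on the Rhox genes was not tested. Within wild type, Dnmt3a was at 0.312 UMIs per Rhox5-rich cell and 0.487 per Rhox5-free cell, a log2 ratio of -0.59 (-1.49 to 0.10), and the whole list at -0.07 (-0.25 to 0.09). Of 14 germline genes that DNA methylation silences in somatic cells, 2 had at least 10 CPM, and both were lower in the knockout library, Mael at a log2 ratio of -0.94 and Sycp3 at -0.71. Members under that level went both ways. Dazl (0.97, interval 0.32 to 1.64), Ddx4 (0.60, 0.17 to 1.03), Hormad1 (0.94, 0.04 to 1.88) and Slc25a31 (1.79, 0.38 to 3.52) were higher in the knockout library. In Rhox5-rich over Rhox5-free wild-type cells the log2 ratio of this list was -0.29 (interval -1.05 to 0.33).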

How the data were processed

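Deposited values are whole-number UMI counts per gene and cell (an integer matrix, per the file headers). The submitters' processing notes name Cell Ranger 2.0.0, Seurat 3.1.1 and the mm10 build, with no role. Each library was grouped by its label. Counts were summed over kept cells and scaled to CPM, and the log2 ratio took 0.5 counts added to each sum, with an exact interval conditional on the total. Thinning was without replacement to the 10th percentile of totals over kept cells. Doublets were called with Scrublet in scanpy 1.11.5 (assumed rate 0.8% per 1000 cells), 2 knockout and 5 wild-type cells, and were kept in the main values. TMM factors came from edgeR 4.0.16. Computation used numpy 2.4.6 and scipy 1.17.1, and ratios and correlations were tested on simulated data. Named genes are the members, all Rhox genes, Krt8, Nanog, marker lists, 5 neighbours on each side and the 10 genes of highest and 5 of lowest r with the members' sum, of which 1 is not reported here. The members and lists were chosen with earlier results of these data known. Leaving out each top cell was added after seeing the data. The bulk RNA sequencing named in the design text was not analysed here.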

Additional observations from a re-analysis of the deposited data

How the results depend on the processing

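No paired analysis was possible because there was a single library per genotype, with no replicate numbers to pair. The log2 ratios of the 3 genes were below 0 under every alternative run. Values are counted as moved when outside the main interval, or for r by more than 0.05. Without the endoderm filter, the log2 ratio of Rhox5 was -0.14, its share difference (knockout minus wild type) -1.60 percentage points, and in the knockout library r was 0.51 for Rhox6 with Rhox9, 0.30 for the sum with Krt8 and -0.095 for the sum with Nanog. With 0 endoderm UMIs, r in knockout cells was 0.68 for Rhox6 with Rhox9 and 0.22 for the sum with Krt8, and with no lower mitochondrial limit the first was 0.55. Without the deepest 5% of cells the log2 ratio of Rhox5 was -2.23.

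Without cells of raised chromosome 8 share, the log2 ratios were -1.41, -4.49 and -3.70, and knockout r was -0.0074 for Rhox6 with Rhox9 (a change of sign), -0.048 for the sum with Krt8 and 0.20 for the sum with Nanog, and -0.028 and -0.014 for Rhox6 and Rhox9 with Krt8. Without the top cells, Rhox6 and Rhox9 were at -2.29 and -1.60, r of Rhox6 with Rhox9 was 0.21 (knockout) and 0.52 (wild type), and r of the sum with Krt8 0.0074 and -0.0091. With both left out, the knockout r values were those without raised chromosome 8 cells, Rhox5 was at -1.41, Rhox6 at -2.45, and wild-type r was 0.53 for Rhox6 with Rhox9 and -0.00058 for the sum with Krt8.

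The share difference was -5.71 points for Rhox6 without thinning, and with at least 2 UMIs -5.25 for Rhox5 and -0.373 for Rhox9. Another random draw gave r of Rhox6 with Rhox9 of 0.67 (knockout) and 0.65 (wild type), 0.041 for the sum with Nanog in knockout cells, and a change of sign for Rhox5 with Rhox9 there, to -0.021, so that value rests on the draw. Thinning to 15000 UMIs gave 0.66 and 0.63, and 0.032 with Nanog. Spearman's rho was 0.27 and 0.32 for Rhox6 with Rhox9 and 0.027 and 0.018 for the sum with Krt8. Unthinned cells gave 0.71 and 0.77. TMM and median-of-ratios scaling each shifted all log2 ratios by -0.08. Apart from the changes that removing cells makes by itself, the cause was not tested.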

Other observations

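The cells that the filter on mitochondrial share removes showed Rhox5 in knockout cells at the level of the kept ones. In 227 knockout cells under 1% mitochondrial UMIs with at most 1 endoderm UMI, Rhox5 was at 16.6 CPM (42 UMIs, interval 11.9 to 22.4), against 14.1 CPM in the kept cells. Their median total was 8552 UMIs. In 17 such wild-type cells it was at 119 CPM (35 UMIs in 4 cells, interval 82.9 to 165.6), which rests on few cells. Among 17 knockout cells under 1% with 2 or more endoderm UMIs, Rhox5 was at 202.5 CPM (155.6 to 259.1), with a UMI in 10 cells, and Rhox6 and Rhox9 were at 0.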
